A study of Mus musculus with 4 samples.

Results

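The genes described here encode the complement proteins, the coagulation factors and the fibrinolysis proteins of blood plasma, most of which are made by hepatocytes and secreted. They were measured in the livers of C57BL/6J mice, 2 months old, given injections of ethylbenzene, a solvent and industrial chemical, or of phosphate-buffered saline (PBS), on a first occasion and on a second one. The list of 34 genes was set by symbol and uses no measured threshold, and each gene was represented by its probe set of highest mean signal. A probe set of their own was found for 31 of the 34 (15 of 17 complement genes and 16 of 17 coagulation and fibrinolysis genes), out of 18193 genes in all. The probe set listed for C4b names a second gene as well and was therefore not used, and C3 and Cpb2 were not analysed here.

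Group names give what was injected first, then what was injected second. E+E livers had ethylbenzene both times (5 mice), P+E livers had PBS and then ethylbenzene (5 mice), E+P livers had ethylbenzene and then PBS (3 mice), and P+P livers had PBS both times (3 mice). Ethylbenzene was given at 7 mmol per kg into the peritoneum. The first exposure comprised 2 injections with 24 h between them, 7 days of normal feeding followed, and mice were killed 5 h after the second exposure. Pooled RNA from each group went onto 1 Affymetrix array, so no difference could be set against the spread between animals and none was tested. The number of pooled mice followed the second exposure and cannot be told apart from it.

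Complement is a cascade of plasma proteases in which antibody-bound C1, the mannose-binding lectins or the alternative pathway activate C3, after which C5 to C9 assemble into a pore in the target membrane. Coagulation is a second protease cascade, started by tissue factor or by the contact system, that ends in thrombin cutting fibrinogen, and plasmin later dissolves the clot. Both are part of the output that the liver adjusts in inflammation, when some of these proteins are classed as acute phase reactants.

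Differences between groups are log2 ratios of quantile-normalized signals to which 43.2, the 25th percentile of all deposited signals, was added. Positive values mean higher in the first-named group. A gene was counted as apart at 1.5-fold (0.58 on the log2 scale) or, by a stricter rule, at 2-fold. Both are rules of size and describe 2 arrays each. Signals given array by array are the deposited values. All 31 measured genes lay far above the low-level filter (a signal of 120.0), with deposited signals between 1308 and 88184, and 11513 genes of the series passed that filter.

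The RNA was that of liver. Of 10 hepatocyte markers, 9 were measured and all 9 passed the filter. Their summed normalized signal was 1010575 on E+E, 1015275 on P+E, 993975 on E+P and 954381 on P+P. Quantile normalization gives the highest signals of each array nearly the same values, so these sums are alike in part by construction. Apob was lowest on P+P, with deposited signals of 84226 on E+E, 63097 on P+E, 79436 on E+P and 28499 on P+P. Control probe sets set the P+P array apart. Those for 18S ribosomal RNA, 3 in number, had a geometric mean of 182 on E+E, 145 on P+E, 122 on E+P and 1872 on P+P. For the 3 Actb control probe sets it was 30540.2 on E+E, 24573 on P+E, 22081 on E+P and 8928 on P+P. P+E was therefore also set against E+P. These groups differ in the first exposure as well as the second. Each shift equals the E+P over P+P value with its sign reversed. The P+P array and the first exposure cannot be told apart in it. Setting P+E against E+P moved the value of 19 of the 31 genes by at least 0.1, of which 14 went down and 5 up, and 5 changed sign. Each of these values is given with its gene. Markers of other cells differed with the second exposure in several directions. Those of pancreatic acinar cells (6 of 9 measured, 5 above 0 in both ratios) summed to 6983 on P+E and 2935 on P+P, and to 7046 on E+E and 2382 on E+P, with none below the filter level on the ethylbenzene arrays, 2 below it on P+P and 4 on E+P. Those of neutrophils (6 of 8 measured) summed to 3968 on P+E and 1085 on P+P, and to 6470 on E+E and 665 on E+P, with 2 below the filter level on P+E, P+P and E+P and 1 on E+E. On P+E over P+P the neutrophil markers were divided. S100a8 was at 3.29, S100a9 at 3.62 and Mmp8 at 0.53, but Ngp at -0.89 and Camp at -1.51. Ltf, at -1.10, did not pass the filter. On E+E over E+P the 5 neutrophil markers past the filter were all above 0, with a median of 1.33. Those of Kupffer cells (8 of 8 measured) summed to 11614 on P+E and 14488 on P+P, and to 13565 on E+E and 21199 on E+P, with 2 and 0 of 8 above 0 and medians of -0.21 and -0.57. Over the markers past the filter, the medians were -0.34 and -0.02 for stellate cells (8 markers), -0.42 and 0.72 for platelets (3 markers), and 0.62 and 0.33 for cholangiocytes (3 markers). Their part in the values of the plasma protein genes was not tested. In whole liver, fewer cells of a type and less RNA per cell cannot be told apart.

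The promoters of 4 genes are shown first, because these genes bound the range of the response. F11 and Klkb1 were the only measured genes of the list at least 1.5-fold lower by both second-exposure ratios. Serpinf2 and Pros1 had the highest values of those ratios. F11 encodes coagulation factor XI and Klkb1 plasma prekallikrein, 2 closely related protease zymogens of the contact system, and in the RefSeq gene table the genes lie next to each other. Serpinf2 encodes alpha-2-antiplasmin, the main inhibitor of plasmin, and Pros1 encodes protein S, the cofactor of the anticoagulant protease protein C. Each sequence is the 250 bases before the RefSeq start site on the strand of the gene (GRCm38.p6), at chr8:45262032-45262281 (minus strand) for F11, chr8:45294836-45295085 (minus strand) for Klkb1, chr11:75439502-75439751 (minus strand) for Serpinf2 and chr16:62854057-62854306 (plus strand) for Pros1. Capitals mark matches, on either strand, to any of 6 motifs searched. The HNF1 motif was GTTAAT and the TATA box TATAAA. The C/EBP motif was TTGCNNAA. The STAT motif was TTCNNNGAA. The HNF4 motif was CAAAGTCCA. The motif of the PAR bZIP factors, which follow the circadian clock, was TTATGNAA.
F11: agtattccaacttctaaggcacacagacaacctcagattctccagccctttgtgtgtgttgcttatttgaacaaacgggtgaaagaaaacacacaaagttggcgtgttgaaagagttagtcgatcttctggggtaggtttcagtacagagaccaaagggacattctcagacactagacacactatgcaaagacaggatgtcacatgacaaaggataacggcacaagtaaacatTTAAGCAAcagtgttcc
Klkb1: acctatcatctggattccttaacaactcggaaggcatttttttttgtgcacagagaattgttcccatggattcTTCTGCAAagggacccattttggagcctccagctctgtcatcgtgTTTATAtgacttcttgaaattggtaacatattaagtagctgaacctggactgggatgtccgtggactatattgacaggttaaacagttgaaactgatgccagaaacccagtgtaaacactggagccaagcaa
Serpinf2: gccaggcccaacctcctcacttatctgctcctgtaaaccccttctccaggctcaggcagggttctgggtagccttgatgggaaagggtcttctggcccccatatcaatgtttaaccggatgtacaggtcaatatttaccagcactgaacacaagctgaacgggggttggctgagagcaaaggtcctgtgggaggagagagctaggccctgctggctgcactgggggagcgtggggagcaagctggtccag
Pros1: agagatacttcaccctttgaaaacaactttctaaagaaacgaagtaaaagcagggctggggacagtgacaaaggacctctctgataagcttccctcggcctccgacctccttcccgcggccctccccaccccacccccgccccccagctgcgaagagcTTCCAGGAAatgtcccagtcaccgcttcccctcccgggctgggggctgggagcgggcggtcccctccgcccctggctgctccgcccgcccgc

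With bases counted backwards from the start site, F11 held a C/EBP match beginning at -17. Klkb1 held a C/EBP match beginning at -177 and a TATA match beginning at -132. Pros1 held a STAT match beginning at -92, and the Serpinf2 window held none of the 6 motifs. None of the matches overlapped. A window was listed for 23 of the 31 measured genes. The C/EBP letters were found in 4 of the 23 (C9, F9, F11 and Klkb1), or 17.4%, against 10.8% of the 27025 genes with a window in the RefSeq table. The STAT letters were found in 4 of 23 (Masp2, C8a, F9 and Pros1), or 17.4%, against 8.13%, and the HNF1 letters in 5 of 23 (Hc, C8a, C8b, C4bp and F13b), or 21.7%, against 7.49%. The PAR bZIP letters were found in C9 and C4bp (8.70%, against 3.63%), the TATA letters in Hc and Klkb1 (8.70%, against 14.3%), and the HNF4 letters in none of the 23 (0.451% of all genes). These are matches of letters, and binding was not measured.

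At 5 h after the second exposure most of these transcripts were within 1.5-fold of the PBS arrays. On P+E, 4 of 31 measured genes were at least 1.5-fold lower than on P+P (C2, C6, F11 and Klkb1), where 17.2% of all genes past the filter were, and 1 was at least 1.5-fold higher (Serpinf2), where 13.9% were. On E+E, 2 of 31 were at least 1.5-fold lower than on E+P (F11 and Klkb1), against 16.6% of all genes, and none was that much higher, against 15.2%. By both ratios, which share no array, 26 of 31 (83.9%) stayed within 1.5-fold, against 52.9% of all genes and 64.5% of the 6868 genes past a stricter filter at the 75th percentile. Lower by at least 1.5-fold in both were F11 and Klkb1, or 2 of 31, against 6.58% of all genes, and none was higher in both, against 6.48%. At 2-fold no gene was apart on P+E over P+P, where 13.2% of all genes were. On E+E over E+P, F11 alone was 2-fold lower, against 6.74% of all genes, and none was 2-fold higher, against 6.91%. With E+P as the control of P+E, the genes at least 1.5-fold lower were again 4, with F5 in place of C6, and none was higher. The plot of second-exposure ratios shows each gene by its role.

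**Figure D1:**
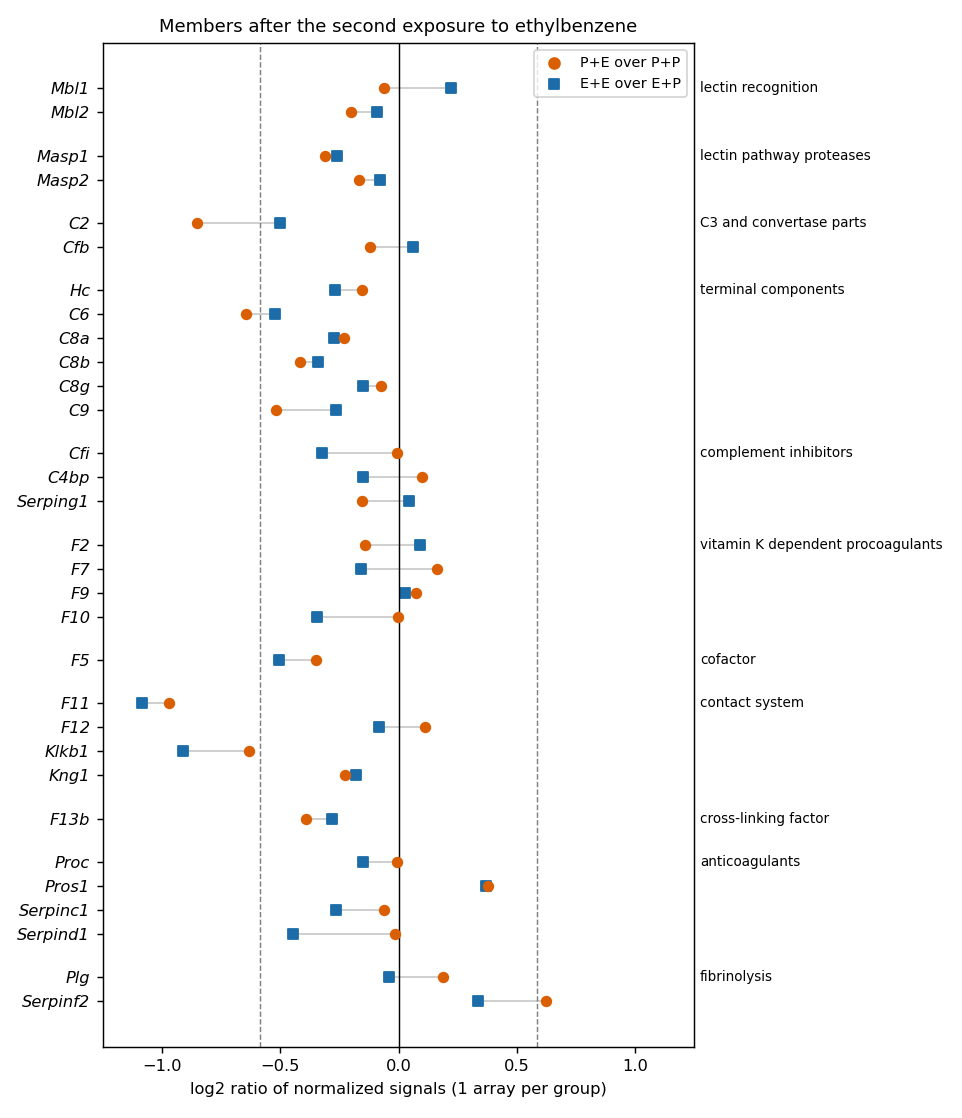
Log2 ratio of each measured gene after the second exposure, P+E over P+P as orange circles and E+E over E+P as blue squares, with 1 array per group and no error bars. Genes run down the page by role, dashed lines mark 1.5-fold, and 26 of 31 genes lie between them for both ratios, with F11 and Klkb1 to the left by both.

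Within that narrow range the values leaned low. In each of the ratios 24 of 31 genes were below 0 and 7 above. Of all 11513 genes past the filter, 6381 were below 0 on P+E over P+P and 6235 on E+E over E+P. Of the members, 20 (64.5%) were below 0 in both, against 37.4% of all genes and 41.9% of those past the stricter filter. Above 0 in both were Pros1, Serpinf2 and F9 (9.68%, against 27.8% of all genes), of which F9 turned below 0 in both ratios when the arrays were scaled to a common 75th percentile. Against E+P, P+E was below 0 for 25 of 31 genes and above 0 for 6, with sign changes for Mbl1, C4bp, F2, F7 and F9. That ratio shares the E+P array with E+E over E+P and differs in the first exposure too. It is therefore not an independent reading of the lean, and no share of all genes is given for it. The median log2 ratio was -0.14 on P+E over P+P and -0.18 on E+E over E+P, against -0.07 and -0.05 over all genes past the filter. The standard deviation over the 31 genes was 0.33 and 0.31, against 0.75 and 0.76 over all genes. It was 0.69 and 0.70 over genes past the stricter filter. Neither of these sets was matched to the signal level of the members. Across the 31 genes Pearson's r between the ratios was 0.79 and Spearman's rho was 0.64, against 0.50 and 0.40 across all genes and 0.77 and 0.60 across those past the stricter filter. This is a description across genes, which all share the same 4 arrays and are not independent replicates.

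The complement median was slightly lower than that of coagulation on P+E over P+P. On E+E over E+P the gap was smaller than 0.1, the limit used for a moved median. The 15 complement genes had medians of -0.17 (P+E over P+P) and -0.26 (E+E over E+P), with 14 and 12 of 15 below 0. The 16 coagulation and fibrinolysis genes had medians of -0.01 and -0.17, with 10 and 12 of 16 below 0. Over all 11513 genes past the filter, 6381 and 6235 were below 0 in these ratios. The complement median minus that of coagulation was thus -0.16 and -0.09. The second of these differences was 0.00 when all probe sets of a gene were averaged.

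The lectin pathway starts from pattern recognition molecules. The mannose-binding lectin genes Mbl1 and Mbl2 had log2 ratios of -0.06 and -0.20 on P+E over P+P and 0.22 and -0.09 on E+E over E+P. Mbl1 had signals of 11772 on P+E and 12592 on P+P, and of 11500 on E+E and 10004 on E+P. The E+P array was thus the lowest for Mbl1, and P+E against E+P gave 0.25. The serine proteases that the lectins carry, which cut C4 and C2, are encoded by Masp1 (-0.31 and -0.26) and Masp2 (-0.17 and -0.08). Against E+P, P+E gave -0.49 for Masp1 and -0.06 for Masp2. The other 4 probe sets of Masp1 did not run the same way. Their ratios lay between -0.25 and 0.09 on P+E over P+P and between -0.12 and 0.94 on E+E over E+P. Masp1 and its alternative transcripts are therefore uncertain. The second probe set of Masp2, at signals between 1600 and 1879, gave 0.19 on P+E over P+P and -0.0009 on E+E over E+P. The direction of Masp2 on P+E over P+P thus depends on the probe set.

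C2, the protease zymogen of the classical and lectin C3 convertase, was the complement gene with the lowest ratio in PBS-first mice. Its signals were 2365 on P+E and 4516 on P+P, and 3090 on E+E and 4458 on E+P. Both ethylbenzene arrays were below both PBS arrays, by 1.80-fold on P+E and 1.42-fold on E+E. The other 2 probe sets of C2 gave -0.75 and -0.68 on P+E over P+P and -0.38 and -0.48 on E+E over E+P, and P+E against E+P gave -0.87. Cfb, which encodes factor B, the homologous protease of the alternative pathway, lies next to C2 in the gene table. Cfb had signals of 19014 on P+E and 21314 on P+P, and of 22905 on E+E and 21996 on E+P, and log2 ratios of -0.12 and 0.06. Cfb thus lay closer to 0 than its neighbour C2 in both ratios.

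The 6 terminal components were all below 0 in both ratios, with medians of -0.32 (P+E over P+P) and -0.27 (E+E over E+P). C6, which joins C5b to begin the membrane attack complex, was the lowest of them in each ratio. Its signals were 5469 on P+E and 8805 on P+P, and 4602 on E+E and 6734 on E+P, or 1.56-fold and 1.43-fold lower after ethylbenzene. Against E+P in place of P+P, P+E gave -0.29, short of 1.5-fold. C9, which forms the wall of the pore, had signals of 22346 on P+E and 33387 on P+P, and of 25051 on E+E and 30726 on E+P (log2 ratios of -0.52 and -0.26, and -0.39 for P+E against E+P). For C6 and C9 alike, both ethylbenzene arrays were below both PBS arrays. C8 is made of 3 chains from separate genes. The alpha and beta chain genes C8a (-0.23 and -0.27) and C8b (-0.42 and -0.34) are adjacent in the gene table, and the gamma chain gene C8g (-0.07 and -0.15), whose product is a lipocalin, lies elsewhere. Hc, which encodes C5, was at -0.15 and -0.27. Against E+P, P+E gave -0.44 for Hc and -0.42 for C8a.

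The inhibitors of complement showed no common direction on P+E over P+P. Cfi, which encodes the protease that inactivates C3b and C4b, was at -0.01 and -0.32, and at -0.34 for P+E against E+P. C4bp, which encodes a cofactor of that protease, was at 0.10 and -0.15, and it turned below 0 in the first ratio at a common 75th percentile and, at -0.16, against E+P. Serping1, which encodes the C1 inhibitor, a serpin that also blocks plasma kallikrein and factor XII, had signals of 47880.1 on P+E and 51118 on P+P, and of 56876 on E+E and 50959 on E+P. Its log2 ratios were -0.15 and 0.05, so the ratios lay on different sides of 0. In the values as deposited the second was 0.16.

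The contact system held the lowest values of coagulation. F11 had signals of 1418 on P+E and 2898 on P+P, and of 1308 on E+E and 2907 on E+P. The ethylbenzene arrays were 1.96-fold and 2.12-fold lower, and the PBS arrays were almost alike. Of all genes past the filter, 7.17% and 5.66% had a ratio at or below that of F11. Klkb1 had signals of 12409 on P+E and 19611 on P+P, and of 12746 on E+E and 24292 on E+P, 1.55-fold and 1.88-fold lower. With E+P in place of P+P, P+E gave -0.97 for F11 and -0.95 for Klkb1, so neither value rested on the P+P array.

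The other contact genes did not share these values. F12, which encodes factor XII, the protease that starts the contact pathway, had signals of 15835 on P+E and 15064 on P+P, and of 15370.0 on E+E and 16053 on E+P (0.11 and -0.08, and 0.00 for P+E against E+P). Kng1, which encodes the high molecular weight kininogen that carries prekallikrein and factor XI in plasma, was at -0.23 and -0.18, and its second probe set at -0.34 and -0.31. The values of Kng1 depended on the scaling and the control, with -0.06 and -0.05 in the values as deposited and -0.42 for P+E against E+P.

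**Figure D2:**
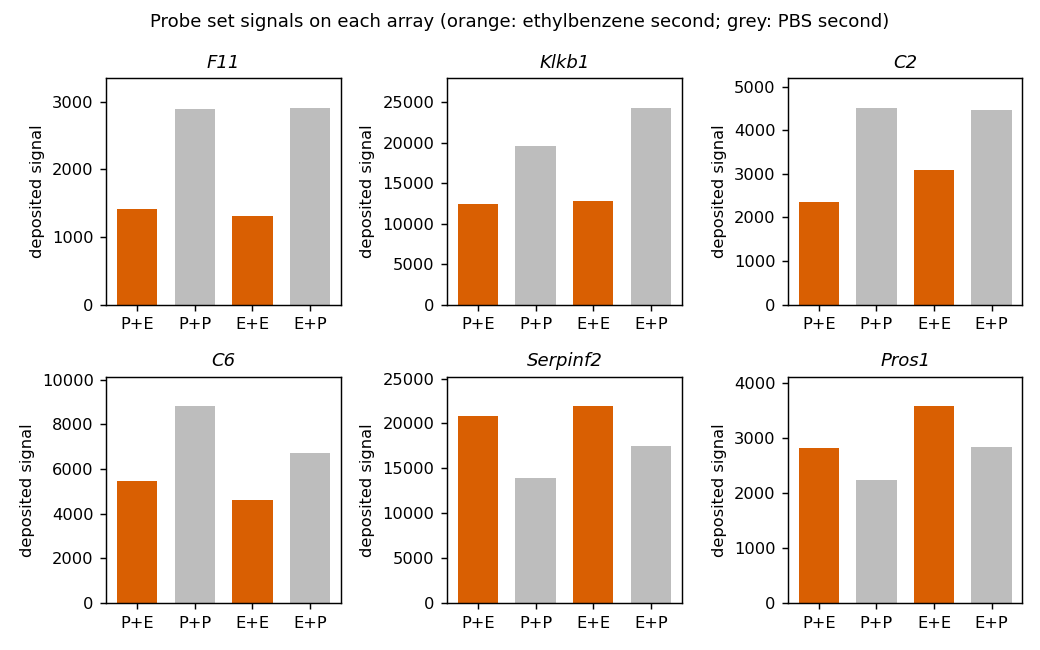
Deposited signals (linear scale from 0) of 6 genes on each of the 4 arrays, orange for ethylbenzene and grey for PBS as the second exposure. Each bar is 1 array of pooled RNA, so there are no error bars. F11 and C2 are at similar levels on both PBS arrays and lower on both ethylbenzene arrays, and Pros1 is highest on E+E (3585) and lowest on P+P (2249).

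The vitamin K dependent procoagulants showed no common direction. F2, which encodes prothrombin, was at -0.14 (P+E over P+P) and 0.09 (E+E over E+P), and at 0.07 for P+E against E+P. F7, which encodes the protease that pairs with tissue factor, was at 0.16 and -0.16, and F9, the gene of factor IX, at 0.08 and 0.03. Against E+P, P+E gave -0.19 for F7, -0.01 for F9 and -0.42 for F10. F10, which encodes factor X, the protease that cuts prothrombin, lies next to F7 in the gene table. F10 had signals of 10573 on P+E and 10727 on P+P, and of 11066 on E+E and 14135 on E+P (0.00 and -0.34). The other 2 probe sets of F10, at signals between 1478 and 2126, gave 0.56 and 0.54 on P+E over P+P and 0.03 and 0.32 on E+E over E+P, so its direction depends on the probe set. F5, which encodes the cofactor of factor Xa, was lower in both. It had signals of 9498 on P+E and 12531 on P+P, and of 10197 on E+E and 14759 on E+P, with log2 ratios of -0.35 and -0.50, and -0.32 and -0.49 on its second probe set. Against E+P, P+E gave -0.61 for F5, past 1.5-fold. F13b, which encodes the carrier subunit of the fibrin cross-linking factor XIII, was at -0.39 and -0.28.

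Among the anticoagulants Pros1 differed from the rest in its values. Its signals were 2820 on P+E and 2249 on P+P, and 3585 on E+E and 2846 on E+P, or 1.30-fold and 1.29-fold higher after ethylbenzene. P+E and E+P were at about the same level for Pros1 (0.03 on the log2 scale). Proc, which encodes protein C, was at 0.00 and -0.15, and Serpinc1, which encodes antithrombin, at -0.06 and -0.26, with the first value turning above 0 for Serpinc1 in the values as deposited, at 0.04, where the second was -0.10. Serpind1, which encodes heparin cofactor II, was at -0.02 and -0.44, and at -0.32 for P+E against E+P.

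Of the fibrinolysis genes, Serpinf2 had signals of 20870.2 on P+E and 13871 on P+P, and of 21913 on E+E and 17510.2 on E+P. Both ethylbenzene arrays were above both PBS arrays, by 1.54-fold and 1.26-fold. In the first ratio Serpinf2 was at 0.53 and short of 1.5-fold at a common 75th percentile, and at 0.30 against E+P. Plg, the gene of plasminogen, which is the target of this inhibitor once activated, was at 0.19 and -0.04, and the second value turned above 0 in the values as deposited, at 0.06, and at a common 75th percentile, at 0.03.

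What differed 7 days after the first exposure was read from E+P over P+P, where PBS followed, and from E+E over P+E, where ethylbenzene followed. These ratios share no array, and the first rests on P+P, the array set apart by its control probe sets. None of the 31 genes was 1.5-fold apart in either ratio, where 16.6% and 21.3% of all genes were. Among genes past the stricter filter, 93.3% and 90.7% stayed within 1.5-fold. The members' medians were 0.08 and 0.04, against -0.01 and 0.00 over all genes. In the first ratio 25 of 31 were above 0, against 48.1% of all genes, among them 15 of 16 coagulation and fibrinolysis genes, but C2, F11, F13b and Proc of the 25 turned below 0 at a common 75th percentile. In the second ratio 22 were above 0, against 49.9% of all genes, and 19 (61.3%) were above 0 in both, against 23.5%.

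**Figure D3:**
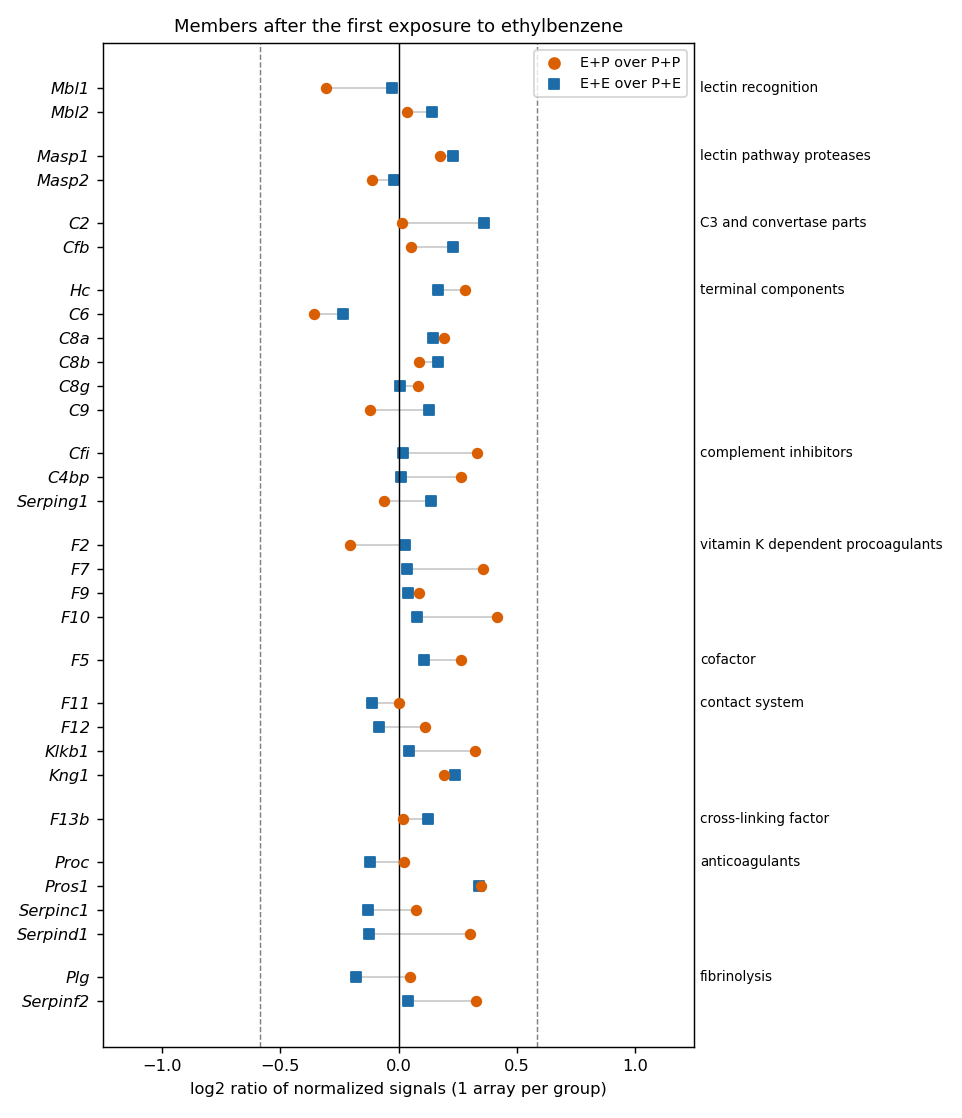
Log2 ratio of each measured gene after the first exposure, E+P over P+P as orange circles and E+E over P+E as blue squares, with 1 array per group and no error bars. All 31 genes lie between the dashed lines at 1.5-fold, from -0.36 for C6 to 0.42 for F10.

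Pros1 was higher by 0.35 on E+P over P+P and by 0.34 on E+E over P+E. C6 was the lowest gene in both, at -0.36 and -0.23. The other values above 0.3 were not repeated in the second ratio. F10 was at 0.42 and 0.08, F7 at 0.36 and 0.04, Cfi at 0.33 and 0.02, Serpinf2 at 0.33 and 0.04, Klkb1 at 0.32 and 0.04 and Serpind1 at 0.30 and -0.12. The other 2 probe sets of F10 gave 0.14 and 0.10 on E+P over P+P and -0.39 and -0.13 on E+E over P+E. C2 was at 0.01 and 0.36. Mbl1 was at -0.31 and -0.03 and F2 at -0.21 and 0.03.

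The last comparison asks if earlier ethylbenzene went with another response to later ethylbenzene. It subtracts P+E over P+P from E+E over E+P on the log2 scale. No member reached 1.5-fold, where 32.2% of all genes did. Among genes past the stricter filter, 82.0% stayed within 1.5-fold in this difference. The values ran from -0.43 for Serpind1 to 0.35 for C2. The medians of complement and coagulation lay on different sides of 0. The complement median was 0.09 with 10 of 15 genes above 0, and the coagulation median was -0.17 with 13 of 16 genes below 0, against 0.01 over all genes, of which 5797 were above 0 and 5715 below. The gap between these medians was 0.27, and between 0.25 and 0.29 under the alternatives tried. None of those alternatives left out the P+P array, which its control probe sets set apart, so its part in the gap was not tested. Of the 4 anticoagulant genes, Proc, Serpinc1 and Serpind1 were below 0, and Pros1, at -0.01, turned above 0 in the values as deposited (0.01) and at a common 75th percentile (0.03). The difference holds the error of all 4 arrays.

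Other genes of the pathways were taken from a list of 67, of which 55 had a probe set of their own and 48 passed the filter. On P+E over P+P, 8 of the 48 (16.7%) were at least 1.5-fold higher, against 13.9% of all genes, and 2 (4.17%) lower, against 17.2%. On E+E over E+P 7 (14.6%) were higher, against 15.2% of all genes, and 5 (10.4%) lower, against 16.6%. The shares higher were near those of all genes. Both ratios passed 2-fold upwards for Thbd and Serpina10, as for 2.87% of all genes, and none of the 48 was 2-fold lower in both, as 1.86% were. Thbd encodes thrombomodulin, the endothelial receptor on which thrombin activates protein C. Thbd had signals of 3152 on P+E and 286 on P+P, and of 3332 on E+E and 254.5 on E+P, 9.47-fold and 11.1-fold higher. Of 8 markers of sinusoidal endothelial cells, 2 were above 0 in each of these ratios, and their summed normalized signal was 10178 on P+E and 12275 on P+P, and 9591 on E+E and 12513 on E+P, with no marker below the filter level on any array. These markers were divided, with Lyve1 at 1.56 and 2.01 but Kdr at -0.94 and -0.92 and Fcgr2b at -0.63 and -1.01. The part of these cells in the value of Thbd was not tested.

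Serpina10 encodes the protein Z-dependent protease inhibitor, a plasma serpin that blocks factor Xa. Serpina10 had signals of 24858 on P+E and 10566 on P+P, and of 30868 on E+E and 10694 on E+P, 2.42-fold and 2.93-fold higher. Its probe set is of a kind that can match several transcripts. The plot of both ratios shows where these genes lie beside the members.

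**Figure D4:**
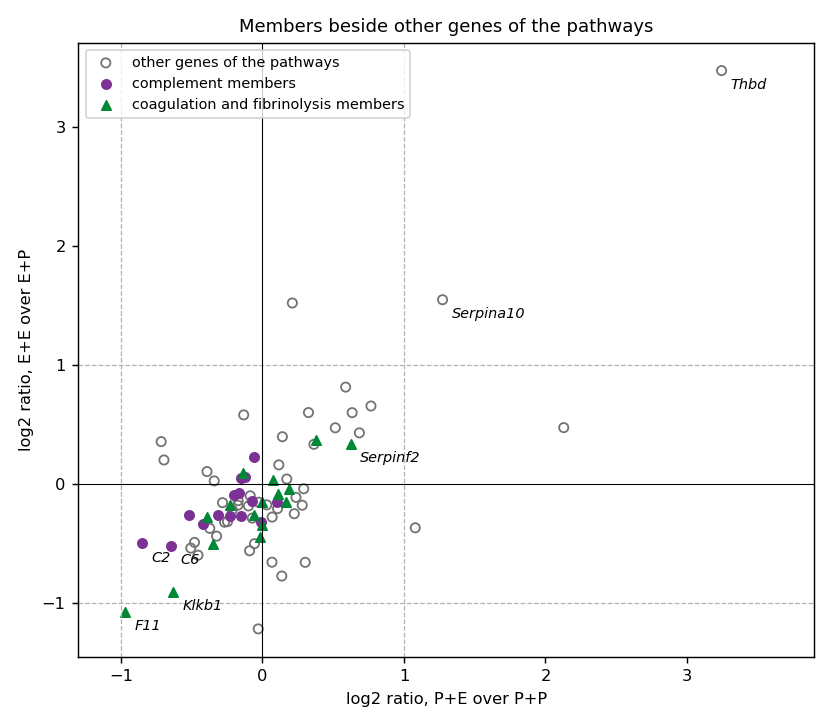
Log2 ratio on E+E over E+P (vertical) against log2 ratio on P+E over P+P (horizontal) for the 15 complement members (purple circles), the 16 coagulation and fibrinolysis members (green triangles) and the 48 other pathway genes past the filter (open circles), with dashed lines at 2-fold. Each point is 1 gene on 4 arrays with no error bars. Thbd and Serpina10 lie beyond 2-fold in both ratios, and the members lie near the centre, with F11 and Klkb1 at the lower left.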

How the data were processed

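Liver RNA of 4 groups, pooled by group, was measured on 1 Affymetrix array each. The deposited values were intensities, linear signals of 45101 probe sets per array. The sources used here name neither the software nor the scaling. On every array the mean left after trimming 2% at each end was 500.0, so the authors' values were already scaled. Their log2 medians still differed by 0.24, so the intensities were quantile-normalized without the 64 control probe sets (Python 3.11.15, numpy 2.4.6, pandas 2.3.3). This step moved ratios of some abundant transcripts by at least 0.1, against the values as deposited (Kng1 and Serpinc1 on P+E over P+P, Serping1, Kng1, Serpinc1 and Plg on E+E over E+P, and Serping1 on E+E over P+E). The added 43.2 brings ratios of low signals closer to 0.

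Symbols came from the platform annotation, updated through Entrez identifiers in RefSeq (GRCm38.p6). The 34945 probe sets with 1 symbol gave 18193 genes. The filter kept genes whose mean log2 value reached the median of all probe sets. No p-value or standard error can be had from 1 array per group, and the number of arrays limits the precision. Promoter windows came from the RefSeq table. Steps were tested on simulated arrays. Every member is named, and other pathway genes are named where both second-exposure ratios passed 2-fold in the same direction. Members and lists were chosen with earlier results of these data known. Probe sets that can match related genes make their values uncertain.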

Additional observations from a re-analysis of the deposited data

Results flagged for a closer look

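Plaur, a gene of the pathways outside the list, which encodes the receptor that holds urokinase at the cell surface, differed in direction between the first-exposure ratios. It was at 0.91 on E+P over P+P and at -0.75 on E+E over P+E, a difference of -1.66 on the log2 scale. Its signals were 392 on E+E, 662 on P+E, 254 on E+P and 109 on P+P, and the P+P signal lay below the filter level. The difference was not tested, since each ratio rests on 1 array per group. No listed complement or coagulation gene was at least 1.5-fold apart in opposite directions.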

How the results depend on the processing

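The counts, medians and gaps between the lists were recomputed with the values as deposited, a common 75th percentile, pseudocounts of 1 and 16, no filter, a 75th percentile filter, the mean of all probe sets, no _s_at or _x_at probe sets, and low signals set to the filter level. P+E over P+P was also replaced by P+E over E+P. Changing the filter, setting low signals to the filter level and leaving out _s_at and _x_at probe sets could not move the members' values. All members passed each filter, and none was represented by such a probe set. The limit of 0.1 used for medians is larger than several of them. The members' median difference between the second-exposure ratios went from -0.05 to 0.02 at a common 75th percentile and counted as unmoved. Of 276 recomputed values, 30 came from each of the settings that could not move the members' values. Of the 276, 272 stayed within 1.5 times for counts or 0.1 for medians. The 4 others concern P+E over P+P. The number of members at least 1.5-fold higher, 1 in the values reported, was 0 at a common 75th percentile and 0 with E+P as the control. The number at least 2-fold lower, 0 in the values reported, was 1 with the values as deposited and 1 at a common 75th percentile, in both cases F11. The cause was not tested. No member apart by 1.5-fold in a second-exposure ratio changed direction in that ratio under these alternatives, nor did Thbd or Serpina10. The alternatives were also run for the members within 1.5-fold, but not for genes other than the members, Thbd and Serpina10. Of 1518 single-gene values, 69 moved by at least 0.1. The 1518 include 165 from each setting that could not move the members' values. No paired analysis was possible because each group has 1 array. With 1 pooled array per group, differences of the size seen for most members cannot be set against variation between animals.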

Other observations

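These genes of the pathways were chosen after their values were seen. The 3 fibrinogen chain genes, whose product is the substrate of thrombin, were above 0 in both second-exposure ratios. On P+E over P+P, Fga and Fgb passed 1.5-fold, and on E+E over E+P Fga did. Fga had log2 ratios of 0.63 on P+E over P+P and 0.60 on E+E over E+P, Fgb 0.69 and 0.43, and Fgg 0.52 and 0.47. Fga had signals of 169562 on P+E and 94408 on P+P, and of 186637 on E+E and 103468 on E+P. Vkorc1, which recycles the vitamin K that factors II, VII, IX and X need, was at -0.48 and -0.49.

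The C1q chain genes, made by macrophages, were higher 7 days after the first exposure on E+P over P+P (C1qa 0.94, C1qb 0.62 and C1qc 0.66). On E+E over P+E they were at 0.03, 0.16 and 0.18, and the difference between these ratios was not tested. Of 8 Kupffer cell markers, 7 were above 0 in the first of these ratios and 6 in the second, with medians of 0.57 and 0.26. Their summed normalized signal was 21199 on E+P and 14488 on P+P, and 13565 on E+E and 11614 on P+E, with none below the filter level on any array. Their part in the C1q values was not tested.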
